A study of Mus musculus with 24 samples.

Results

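The 10 genes described here, Atf4, Atf5, Ddit3, Asns, Trib3, Chac1, Mthfd2, Sesn2, Ddit4 and Nupr1, belong to the ATF4 arm of the integrated stress response. They were matched by symbol, and all 10 were present among the 41388 genes of the count files. Their transcripts were measured by RNA sequencing of mouse liver after oligo-dT selection. The design crossed genotype with feeding, and the same 10 genes were followed in all 4 groups.

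The integrated stress response begins when a stress-sensing kinase phosphorylates the translation factor eIF2alpha. Most protein synthesis then slows, while the mRNAs of Atf4 and Atf5 are translated more, because short reading frames ahead of their coding sequences hold translation back at rest. ATF4 protein then pairs with other bZIP factors on composite C/EBP-ATF sites and drives genes for amino acid supply, redox balance and growth arrest, so that an mRNA level of Atf4 is not a measure of its protein. Liver meets this pathway in amino acid shortage, endoplasmic reticulum stress and mitochondrial stress.

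The knockout fasted group held 6 libraries from mice labelled LSALT2KO, a liver-specific knockout of alanine transaminase 2 (Gpt2), fasted for 18 h. The knockout fed group held 6 libraries from mice of that genotype with free access to food. The control fasted group held 5 libraries from mice labelled Control with fl/fl in the title, a floxed allele, fasted for 18 h. The control fed group held 5 libraries of control mice with free access to food. Gpt2 encodes the mitochondrial enzyme that exchanges amino groups between alanine and glutamate. The Cre driver, the deleted part of the gene, strain and age were not given in the sources used here. The labels do not say that libraries came from separate animals, so p-values measure the spread between these libraries, which may be technical.

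Libraries held 18.4 M to 55.3 M assigned reads in the knockout fasted group and 23 M to 44.5 M in the knockout fed group. They held 19.9 M to 46.5 M in the control fasted group and 27.7 M to 40 M in the control fed group. Another pair of control libraries was left out of all comparisons. The file of control fed replicate 6 was truncated. The library labelled control fasted replicate 4 held albumin (Alb) at 123 CPM (reads scaled to a common library size) and the kidney androgen-regulated gene Kap at 7040 CPM, which goes against a liver label. Gpt2 averaged 112 ± 36.3 CPM in knockout fasted livers and 697 ± 86.7 CPM in control fasted livers (SD, n = 6 and 5), or 16% of control. It averaged 60.5 ± 11.3 CPM in knockout fed livers and 370 ± 51.9 CPM in control fed livers (SD, n = 6 and 5), or 16.3% of control. In both feeding states the exact two-sided permutation test gave p = 0.00216, the smallest that 462 arrangements allow. Hepatocyte marker mRNAs were abundant in every group, with 4 of the 5 listed markers matched and a summed level of 67000 to 146000 CPM in knockout fasted, 64200 to 124000 CPM in knockout fed, 63900 to 125000 CPM in control fasted and 67300 to 100000 CPM in control fed libraries.

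The promoter windows of 5 genes are printed because they show which members carry the composite site and what the window of the only member called in any comparison looks like. RefSeq windows of 300 bases, 250 before to 50 after the annotated start, were matched for all 10 genes on GRCm38.p6. The composite motif searched was TGATGNAA, or TTNCATCA on the other strand, and these are the same site read from either strand. It was found in 4 of the 10 genes, Asns, Trib3, Chac1 and Nupr1, and in 1304 of 32851 windows in the table, or 3.97%. Capitals mark the match, and each sequence reads 5′ to 3′ along its gene.
Asns: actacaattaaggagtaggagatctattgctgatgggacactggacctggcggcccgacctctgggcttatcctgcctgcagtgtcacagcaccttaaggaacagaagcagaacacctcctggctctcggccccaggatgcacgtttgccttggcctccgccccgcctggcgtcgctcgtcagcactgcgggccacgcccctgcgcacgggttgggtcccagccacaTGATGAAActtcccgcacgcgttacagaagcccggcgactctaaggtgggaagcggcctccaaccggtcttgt
Trib3: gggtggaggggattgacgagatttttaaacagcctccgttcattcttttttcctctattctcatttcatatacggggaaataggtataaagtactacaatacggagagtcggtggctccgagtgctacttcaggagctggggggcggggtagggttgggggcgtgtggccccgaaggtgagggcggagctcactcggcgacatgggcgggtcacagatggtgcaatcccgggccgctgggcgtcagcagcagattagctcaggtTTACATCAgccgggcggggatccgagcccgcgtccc
Chac1: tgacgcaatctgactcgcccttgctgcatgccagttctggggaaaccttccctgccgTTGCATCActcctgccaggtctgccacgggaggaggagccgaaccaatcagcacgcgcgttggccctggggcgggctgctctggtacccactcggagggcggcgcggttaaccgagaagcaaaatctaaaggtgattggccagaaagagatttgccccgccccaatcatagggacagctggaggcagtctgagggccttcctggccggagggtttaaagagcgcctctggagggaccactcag
Nupr1: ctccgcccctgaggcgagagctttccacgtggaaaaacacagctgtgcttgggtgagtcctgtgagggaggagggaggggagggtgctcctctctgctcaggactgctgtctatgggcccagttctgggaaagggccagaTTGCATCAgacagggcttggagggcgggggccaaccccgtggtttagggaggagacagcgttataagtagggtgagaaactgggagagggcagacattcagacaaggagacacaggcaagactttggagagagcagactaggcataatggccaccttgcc
Atf5: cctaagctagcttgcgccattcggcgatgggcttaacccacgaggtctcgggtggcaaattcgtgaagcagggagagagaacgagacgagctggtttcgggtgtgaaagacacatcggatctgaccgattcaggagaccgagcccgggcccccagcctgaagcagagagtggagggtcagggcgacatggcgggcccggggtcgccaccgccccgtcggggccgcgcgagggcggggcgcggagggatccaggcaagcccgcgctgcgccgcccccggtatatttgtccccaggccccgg

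The Asns window is chr6:7693160-7693459 on the minus strand, and its match lies at -23 to -16 from the annotated start, just upstream of it. The Trib3 window is chr2:152344011-152344310 on the minus strand, with the match at 15 to 22 past the start. The Chac1 window is chr2:119350992-119351291 on the plus strand, with the match at -193 to -186. The Nupr1 window is chr7:126625421-126625720 on the minus strand, with the match at -110 to -103. The Atf5 window is chr7:44816609-44816908 on the minus strand and holds none of the letters searched, nor does a second Atf5 window or those of the other 5 members. The motif is a description of these windows, and a window without it says nothing about sites elsewhere or about other spellings.

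The members differed widely in abundance, and transcripts of the transcription factors Atf5 and Atf4 led in every group. Per kilobase of exon (RPKM, from scaled counts), Atf5 averaged 283 ± 59.1 RPKM in knockout fasted, 151 ± 19.9 RPKM in knockout fed, 328 ± 61.0 RPKM in control fasted and 133 ± 18.2 RPKM in control fed livers (SD, n = 6, 6, 5 and 5). Atf4 came next with 39.2 ± 6.18, 50.9 ± 3.97, 43.4 ± 7.56 and 48.8 ± 10.8 RPKM in knockout fasted, knockout fed, control fasted and control fed livers. In all 4 groups the ranges of Atf5 and Atf4 overlapped neither each other nor the next gene. The third place belonged to Ddit4 in both fasted groups, at a mean of 9.90 RPKM in knockout and 7.07 RPKM in control livers, and to Trib3 in both fed groups, at 6.32 RPKM in knockout and 7.18 RPKM in control livers. From the third to the ninth place the ranges of neighbours overlapped in every group. Nupr1 was lowest, with means of 0.201, 0.183, 0.324 and 0.0482 RPKM in knockout fasted, knockout fed, control fasted and control fed livers. Its range lay apart from that of Mthfd2, the gene above it, in both fed groups and overlapped it in both fasted groups.

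**Figure D1:**
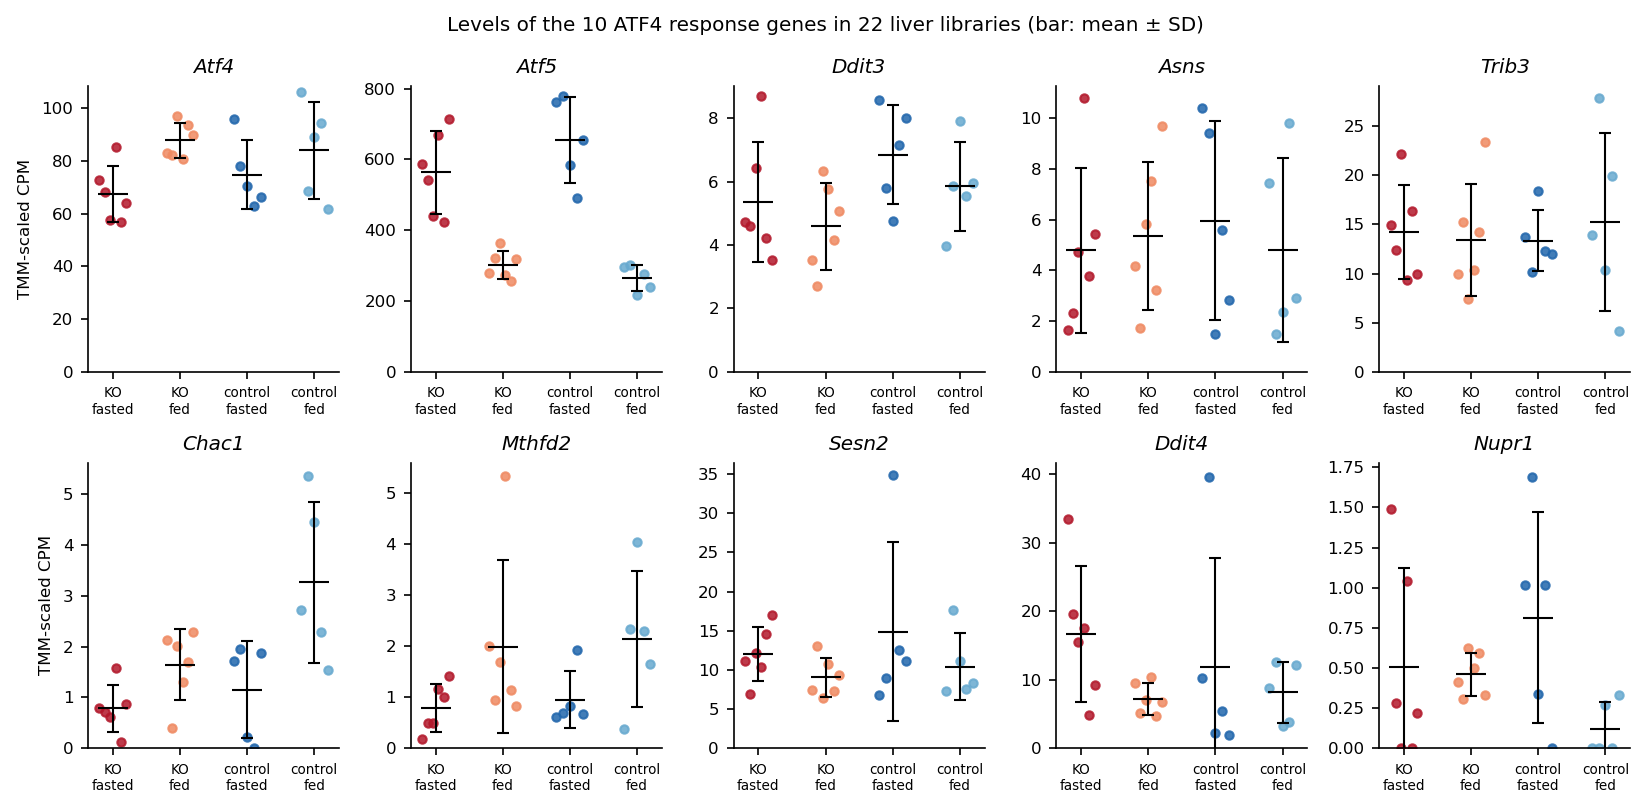
Level of each of the 10 genes (y axis, TMM-scaled CPM from 0, a scale of its own in each panel) in knockout fasted, knockout fed, control fasted and control fed libraries; points are libraries, the line and bar are mean ± SD (bars are cut at 0). Atf5 is the gene whose fasted points, 424 to 714 CPM in knockout and 490 to 779 CPM in control, lie above all fed points of the same genotype.

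The members comprise the bZIP factors Atf4, Atf5 and Ddit3, the metabolic enzymes Asns, Chac1 and Mthfd2, and the regulators Trib3, Sesn2, Ddit4 and Nupr1. Their levels were compared as CPM scaled by trimmed mean of M values (TMM). Fold changes and intervals come from edgeR's quasi-likelihood fit of all 22 libraries and 16757 genes, and a gene was called where its p, adjusted by Benjamini and Hochberg's method, was under 0.05. All 10 members passed the filter on low counts.

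Atf5, a bZIP factor controlled at the level of translation like Atf4 and known from studies of the mitochondrial stress response, rose with fasting in both genotypes. Atf5 stood at a lowest value of 424, a median of 565 and a highest value of 714 CPM in knockout fasted livers, against 256, 298 and 363 CPM in knockout fed livers. In control fasted livers the 5 libraries had 490, 584, 655, 762 and 779 CPM, against 217, 240, 275, 296 and 301 CPM in control fed livers. Every fasted library lay above every fed library of its genotype, so the groups did not overlap.

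Group means of Atf5 were 563 ± 118 CPM (SD, n = 6) in knockout fasted and 302 ± 39.6 CPM (SD, n = 6) in knockout fed livers. They were 654 ± 122 CPM (SD, n = 5) in control fasted and 266 ± 36.2 CPM (SD, n = 5) in control fed livers. The fold change of fasting was 1.87 in knockout livers (log2 0.90 ± 0.13, SE; 95% interval 0.63 to 1.17; adjusted p = 1.1e-05). It was 2.46 in control livers (log2 1.30 ± 0.14, SE; 95% interval 1.0 to 1.59; adjusted p = 1.1e-07). The difference between genotypes in the fasting change was -0.40 ± 0.19 on the log2 scale (95% interval -0.79 to -0.01), with an unadjusted p of 0.0471 and an adjusted p of 1 in edgeR's test of the interaction, so a smaller change in knockout livers was not called. These values rest on at least 6061 reads per library. The counts did not state a strand, and Atf5 shares 82 exon bases with Il4i1 and with ENSMUSG00000043858 on the opposite strand, which held 1545 and 8835 reads against 356802 for Atf5 over 23 libraries. Putting the kidney-like library back, in which Atf5 was at 14 CPM, ended both calls in edgeR. The log2 changes were then 0.90 (adjusted p = 0.535) in knockout and 1.05 (adjusted p = 0.279) in control livers. That library is labelled control fasted and belongs to neither knockout group, but all 4 groups share 1 estimate of the spread in the fit.

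Atf5 was the only member called in either fasting comparison. In knockout livers that was 1 of 10 members, beside 6.14% of all genes tested, and in control livers 1 of 10 beside 8.12%. By direction, 2.88% of genes were called higher and 3.26% lower with fasting in knockout livers, and 3.99% higher and 4.13% lower in control livers. Fasted libraries all lay above fed ones for 1.81% of genes in knockout and 3.87% in control livers, and Atf5 was the 1 member in each. They all lay below for 2.15% of genes in knockout and 4.03% in control livers, and for 0 members. The share of calls that were increases was 46.9% in knockout livers and 36.7% when library totals replaced TMM scaling, while Atf5 kept its direction under both. DESeq2 called 1 member in each genotype. At an unadjusted p under 0.05 edgeR counted 3 members in knockout livers, Atf4, Atf5 and Mthfd2, beside 2678 of 16757 genes. In control livers it counted 2, Atf5 and Chac1, beside 3276 of 16757.

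The median log2 change of the 10 members with fasting was 0.11 in knockout livers, against 0.01 for all genes tested, and 0.26 in control livers, against 0.00. Positive changes were fitted for 6 of the 10 in each genotype. In bulk tissue, fewer cells of a type and less RNA per cell cannot be told apart. Some marker mRNAs of liver cell types also moved with fasting. Among stellate cell markers Col3a1 fell in knockout (log2 -1.45) and control livers (log2 -1.33). Col1a1 was called lower in control livers (log2 -1.17) and had log2 -0.76 in knockout livers (edgeR adjusted p = 0.14). The endothelial marker Lyve1 rose in knockout (log2 1.0) and control livers (log2 1.28), as 1 of 5 endothelial markers in each. The summed level of the 5 stellate markers was 77.3 to 130 CPM in knockout fasted, 120 to 154 CPM in knockout fed, 59.6 to 109 CPM in control fasted and 102 to 139 CPM in control fed livers, and that of the 5 endothelial markers 110 to 170, 102 to 159, 93.3 to 132 and 73.7 to 118 CPM in the same order of groups. Apoa1 was the 1 of 4 hepatocyte markers called in control livers (log2 0.71). Ttr had log2 -0.52 there (edgeR adjusted p = 0.0551), and the list median was 0.10. Spp1 was the 1 of 5 cholangiocyte markers called in control livers (log2 -0.73). Of these 5, 4 had negative and 1 positive fitted changes there. In knockout livers 0 of either list were called. Apoa1 had log2 0.5 (edgeR adjusted p = 0.109) and Spp1 log2 -0.39 (edgeR adjusted p = 0.27) there. Of 5 erythroid markers, Alas2 was the 1 called in each genotype, at log2 -0.47 in knockout and log2 -0.76 in control livers. The 4 globin markers had positive fitted changes in knockout livers, where the list's median was 0.65, and negative ones in control livers, where it was -0.16. The summed level of the erythroid markers was 347 to 627 CPM in knockout fasted, 246 to 450 CPM in knockout fed, 281 to 572 CPM in control fasted and 284 to 631 CPM in control fed livers. The part of these shifts in the Atf5 result was not tested.

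The summed level of the 5 exocrine pancreas markers was 5.58 to 8.29 CPM in knockout fasted, 11.7 to 29.8 CPM in knockout fed, 3.43 to 8.48 CPM in control fasted and 27.2 to 37.7 CPM in control fed livers. Cela1, the 1 of the 5 that passed the filter, fell with fasting (log2 -1.66 in knockout and -2.28 in control livers). The defining markers were at or near 0, with no read of Pnlip in any group, 2 of Prss2 in control fasted livers and 2 of Cpa1 in control fed livers, while Ctrb1 had 19 reads in knockout fasted and 232 in control fed livers.

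Atf4, the central factor of the pathway, had 57.0, 66.2 and 85.4 CPM in knockout fasted livers as lowest, median and highest value, against 80.6, 86.6 and 97.1 CPM in knockout fed livers. In control fasted livers it had 63.0, 66.4, 70.4, 78.1 and 95.8 CPM, against 61.6, 68.7, 89.2, 94.6 and 106 CPM in control fed livers. In knockout livers 5 of the 6 fasted libraries lay below every fed library, and replicate 4 reached into the fed range. In control livers the ranges overlapped almost entirely.

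The log2 change of Atf4 with fasting was -0.38 ± 0.13 in knockout livers (SE, 95% interval -0.64 to -0.12). It missed the threshold, with an unadjusted p of 0.00514 and an adjusted p of 0.0718 in edgeR. In control livers it was -0.17 ± 0.14 (SE; 95% interval -0.45 to 0.11; adjusted p = 0.587). The value in knockout livers passed the threshold only in the settings named next. Over all settings tried, with edgeR, DESeq2 or limma voom, it ran from -0.45 to -0.33 and its adjusted p from 0.0215 to 0.358. In edgeR it was -0.45 (adjusted p = 0.0259) without knockout fasted replicate 4 and -0.38 (adjusted p = 0.0365) when only the fed and fasted knockout groups were fitted. With library totals as the scale it was -0.44 (adjusted p = 0.0215), where the median over all genes was -0.04.

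Ddit3 encodes CHOP, a bZIP factor tied to cell death under prolonged stress. It ranged over 3.54 to 8.72 CPM in knockout fasted, 2.70 to 6.33 CPM in knockout fed, 4.75 to 8.57 CPM in control fasted and 3.98 to 7.92 CPM in control fed livers. All 4 ranges overlapped. Its log2 change with fasting was 0.23 ± 0.25 in knockout and 0.23 ± 0.28 in control livers, and neither was called. Ddit3 shares 68 exon bases with Mars on the opposite strand, which held 46164 reads against 4955 for Ddit3 over 23 libraries, so without strand its level is uncertain.

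**Figure D2:**
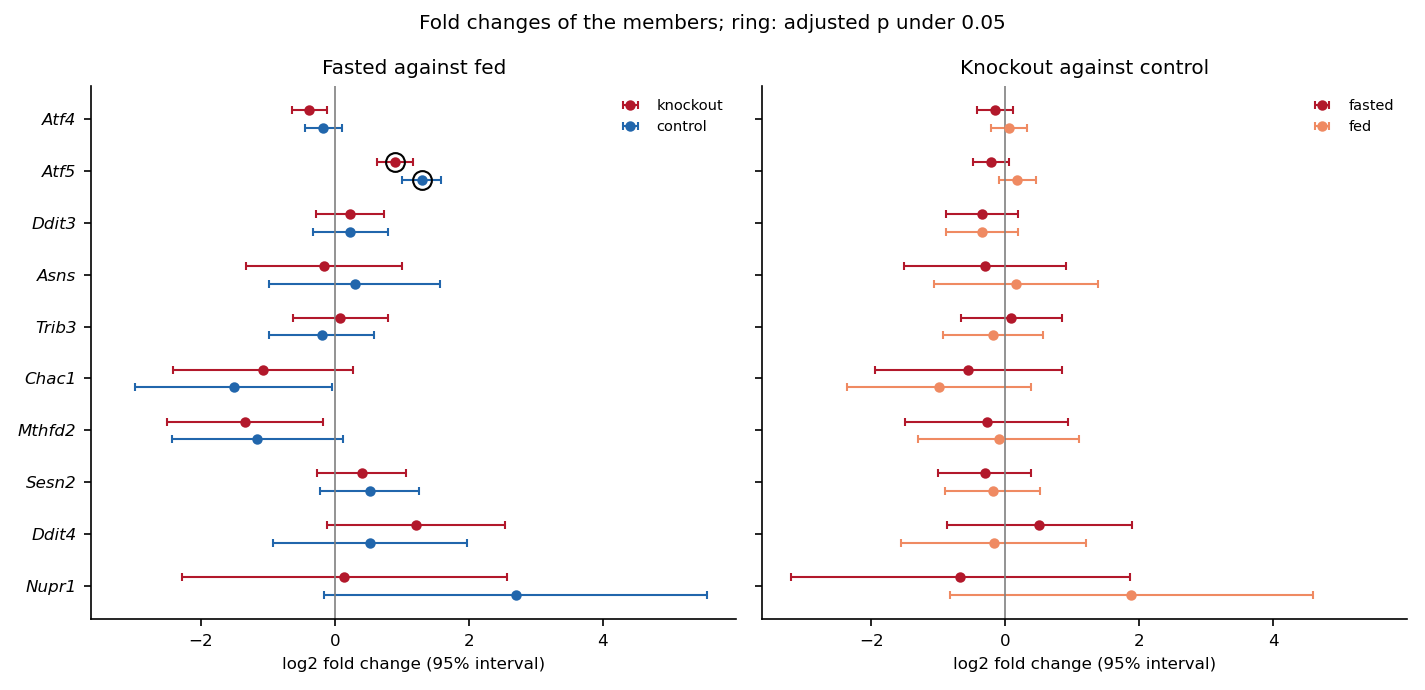
Log2 fold change (x axis, with 95% interval) of each member from edgeR, for fasted against fed livers by genotype on the left and for knockout against control livers by feeding state on the right; rings mark an adjusted p under 0.05. Atf5 with fasting is ringed in both genotypes (0.90 in knockout, 1.30 in control), and no knockout comparison is ringed.

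Asns, which makes asparagine from aspartate and carries the composite site next to its start, varied more within groups than between them. Its lowest, median and highest values were 1.65, 4.26 and 10.8 CPM in knockout fasted livers and 1.73, 4.99 and 9.71 CPM in knockout fed livers. It had 1.51, 2.82, 5.61, 9.44 and 10.4 CPM in control fasted livers, against 1.48, 2.38, 2.93, 7.47 and 9.84 CPM in control fed livers. All 4 groups covered nearly the same span. Within a group the highest library exceeded the lowest by 6.59-fold in knockout fasted, 5.60-fold in knockout fed, 6.92-fold in control fasted and 6.67-fold in control fed livers. The fitted changes with fasting were log2 -0.16 (95% interval -1.33 to 1.0) in knockout and 0.30 (95% interval -0.98 to 1.57) in control livers, and these include a 2-fold decrease in knockout and a 2-fold increase in control livers.

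Chac1, which breaks down glutathione, and Mthfd2, a mitochondrial folate enzyme, had lower means in fasted than in fed livers of both genotypes without passing the test. Chac1 averaged 0.783 ± 0.469 CPM (SD, n = 6) in knockout fasted and 1.64 ± 0.698 CPM (SD, n = 6) in knockout fed livers. It averaged 1.15 ± 0.960 CPM in control fasted and 3.27 ± 1.58 CPM in control fed livers (SD, n = 5 each). Control fasted replicate 5 had no Chac1 read, which allows up to 0.0652 CPM.

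The log2 change of Chac1 with fasting was -1.07 ± 0.66 in knockout (adjusted p = 0.493) and -1.51 ± 0.72 in control livers (adjusted p = 0.238), with an unadjusted p of 0.0442 in the control comparison. limma voom, with neighbouring title numbers as a random block, gave -2.99 and an adjusted p of 0.0353 in control livers. Mthfd2 averaged 0.791 ± 0.471 CPM (SD, n = 6) in knockout fasted and 1.99 ± 1.70 CPM (SD, n = 6) in knockout fed livers. It averaged 0.948 ± 0.557 CPM in control fasted and 2.13 ± 1.33 CPM in control fed livers (SD, n = 5 each). Its log2 changes were -1.34 ± 0.58 in knockout (adjusted p = 0.21) and -1.16 ± 0.63 in control livers (adjusted p = 0.319), and the ranges overlapped in both. Both genes rest on few reads, with as few as 6 for Chac1 and 10 for Mthfd2 in a knockout fasted library.

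Trib3, a pseudokinase that binds AKT and dampens ATF4 and CHOP activity, ranged over 9.33 to 22.2 CPM in knockout fasted and 7.43 to 23.4 CPM in knockout fed livers. It ranged over 10.2 to 18.4 CPM in control fasted and 4.13 to 27.9 CPM in control fed livers. The fasting change was log2 0.08 (95% interval -0.63 to 0.80) in knockout and -0.19 (95% interval -0.98 to 0.59) in control livers. Both intervals stay within 2-fold in either direction, and neither change was called.

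Sesn2 and Ddit4 encode inhibitors of mTORC1 signalling. Sesn2, a leucine sensor, ranged over 6.96 to 17 CPM in knockout fasted, 6.44 to 13.0 CPM in knockout fed, 6.77 to 34.9 CPM in control fasted and 7.34 to 17.6 CPM in control fed livers. Its fasting change was log2 0.40 ± 0.33 in knockout and 0.52 ± 0.36 in control livers, and the control value was -0.07 without control fasted replicate 3, the library at 34.9 CPM.

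Ddit4, also known as REDD1, had 4.83, 16.5 and 33.4 CPM as lowest, median and highest value in knockout fasted livers, against 4.65, 6.84 and 10.4 CPM in knockout fed livers. It had 1.98, 2.29, 5.48, 10.3 and 39.5 CPM in control fasted livers, against 3.19, 3.87, 8.85, 12.2 and 12.6 CPM in control fed livers. In knockout livers 4 of 6 fasted libraries exceeded all fed ones, while in control livers replicate 2 alone did so. The log2 changes were 1.21 ± 0.63 in knockout (adjusted p = 0.384) and 0.53 ± 0.69 in control livers (adjusted p = 0.781). Without control fasted replicate 2 the control value was -0.69.

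Nupr1, a small stress-induced chromatin-binding protein, was near the limit of detection, with 0 to 1.49 CPM in knockout fasted, 0.306 to 0.623 CPM in knockout fed, 0 to 1.69 CPM in control fasted and 0 to 0.335 CPM in control fed livers. No read was counted in 2 knockout fasted, 1 control fasted and 3 control fed libraries. Its fitted log2 change with fasting was 0.14 (95% interval -2.28 to 2.57) in knockout and 2.70 (95% interval -0.16 to 5.56) in control livers, and neither was called.

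No member was called different between knockout and control livers in either feeding state. edgeR called 0 of 10 in fasted livers, beside 0.00597% of all genes, and 0 of 10 in fed livers, beside 0.00597%. It called 0 of 10 for genotype averaged over feeding, beside 0.0358% (0.0298% higher and 0.00597% lower), and 0 of 10 for the interaction, beside 0.00597%. At an unadjusted p under 0.05 the counts were 0 in fasted, 0 in fed and 0 averaged, and 1 for the interaction, which was Atf5. DESeq2 and limma voom also called 0 in each. The ranges of knockout and control libraries overlapped for all 10 members in fasted livers, where 0.31% of genes lay apart above and 0.179% below. They overlapped for all 10 in fed livers too, where 0.698% lay apart above and 0.477% below. The median log2 difference over the members was -0.29 in fasted livers, against 0.01 over all genes, and -0.14 in fed livers, against 0.00.

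The intervals show what could have been missed between genotypes. Within 2-fold in either direction lay the 95% intervals of 4 members in fasted livers, Atf4, Atf5, Ddit3 and Trib3, and of 5 in fed livers, the same 4 and Sesn2. Atf4 differed by log2 -0.15 (95% interval -0.42 to 0.12) in fasted and 0.06 (95% interval -0.21 to 0.33) in fed livers. Atf5 differed by log2 -0.22 (95% interval -0.49 to 0.06) in fasted and 0.18 (95% interval -0.10 to 0.46) in fed livers.

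Members with wider intervals allow larger differences. Asns differed by log2 -0.31 (95% interval -1.52 to 0.91) in fasted and 0.16 (95% interval -1.07 to 1.38) in fed livers. Chac1 differed by log2 -0.55 (95% interval -1.94 to 0.85) in fasted and -0.99 (95% interval -2.36 to 0.38) in fed livers. Nupr1 was widest, at log2 -0.67 (95% interval -3.20 to 1.86) in fasted and 1.88 (95% interval -0.83 to 4.6) in fed livers. Beside these values, all 5 Kupffer cell and macrophage markers had positive fitted differences in both feeding states, with 0 called by edgeR and 5 in fasted and 1 in fed livers at an unadjusted p under 0.05. Their summed level was 90.8 to 196 CPM in knockout fasted and 86.0 to 107 CPM in control fasted livers, and 123 to 184 CPM in knockout fed and 101 to 151 CPM in control fed livers. All 5 sinusoidal endothelium markers, whose summed levels are given above, also had positive differences in both feeding states, with medians of 0.47 in fasted and 0.53 in fed livers. Of these 5, edgeR called 0 in each state, and 3 in each had an unadjusted p under 0.05. The part of either list in the members' values was not tested.

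Within groups, members were compared with Atf4 alone, and pairs among the other members were not tested. After each group's mean was subtracted, log2 CPM of the 9 other members was compared with Atf4 over 22 libraries, with permutation within groups and Benjamini-Hochberg adjustment over the 9 relations. Atf5 gave Pearson's r = 0.52 (permutation p = 0.0239, adjusted 0.121) and Spearman's rho = 0.51 (permutation p = 0.0257, adjusted 0.116), and r was 0.48 without the 2 libraries farthest from the median of Atf4. Asns gave r = 0.49 (permutation p = 0.0451, adjusted 0.121) and rho = 0.48 (permutation p = 0.0445, adjusted 0.133), with r = 0.45 without those libraries. Chac1 gave r = 0.46 (permutation p = 0.0389, adjusted 0.121) and rho = 0.37 (permutation p = 0.118, adjusted 0.265), with r = 0.38 without them. Sesn2 ran the other way, with r = -0.47 (permutation p = 0.0539, adjusted 0.121) and rho = -0.56 (permutation p = 0.0142, adjusted 0.116), and r = -0.50 without them. No relation passed the adjusted threshold.

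The other 5 members gave r between -0.32 for Mthfd2 and 0.31 for Nupr1. Trib3 gave r = 0.05 (permutation p = 0.887, adjusted 0.887) and r = -0.33 without the 2 libraries. The relation with Atf5 passed at an adjusted p of 0.0486 without control fed replicate 2, where r was 0.62. With the kidney-like library included, Atf5 (r = 0.75) and Sesn2 (r = -0.69) passed, each at an adjusted p of 0.0126, and that library holds Atf5 far below and Sesn2 far above the others.

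**Figure D3:**
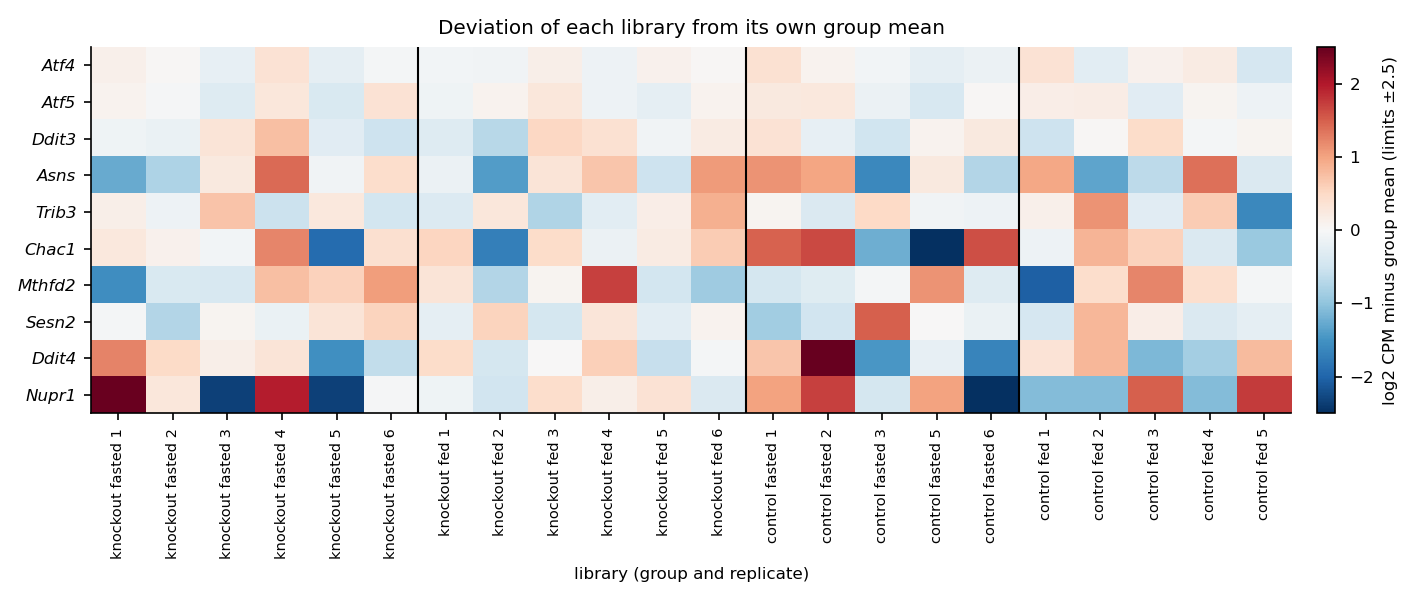
Log2 CPM of each member (rows of the map) minus the mean of its own group in each of the 22 libraries (columns, by group; colour scale limited to ±2.5). Atf4 and Atf5 show pale colours throughout, while Asns, Chac1, Ddit4 and Nupr1 change from library to library. A shared pattern over the 10 genes was not tested.

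By Pearson's r of log2 CPM over the 22 libraries and 8921 genes of at least moderate level, the genes most alike to Atf5 included Ech1 and Agpat3, each at r = 0.94. Ech1 encodes an enzyme of fatty acid oxidation and Agpat3 a lipid acyltransferase. Fed and fasted libraries form separate clusters in these plots, and after group means were subtracted r was 0.50 for Ech1 and 0.60 for Agpat3. With fasting, Ech1 changed by log2 0.87 ± 0.10 in knockout and 1.02 ± 0.11 in control livers, and Agpat3 by 0.80 ± 0.09 in knockout and 0.79 ± 0.10 in control livers, all called by edgeR.

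Atf4 was most alike to Ssr2, a subunit of the translocon-associated complex of the endoplasmic reticulum (r = 0.78), Tmco6 (r = 0.77) and Commd10 (r = 0.76). Ssr2 had log2 -0.38 with fasting in both knockout (adjusted p = 0.0381) and control livers (adjusted p = 0.0616), the size fitted for Atf4 in knockout livers. Asns was most alike to Gramd4 (r = 0.68), Add3 (r = 0.65) and Lrba (r = 0.64), and none of these was called with fasting in either genotype. These r values describe the libraries, which share groups and depth, and carry no test.

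**Figure D4:**
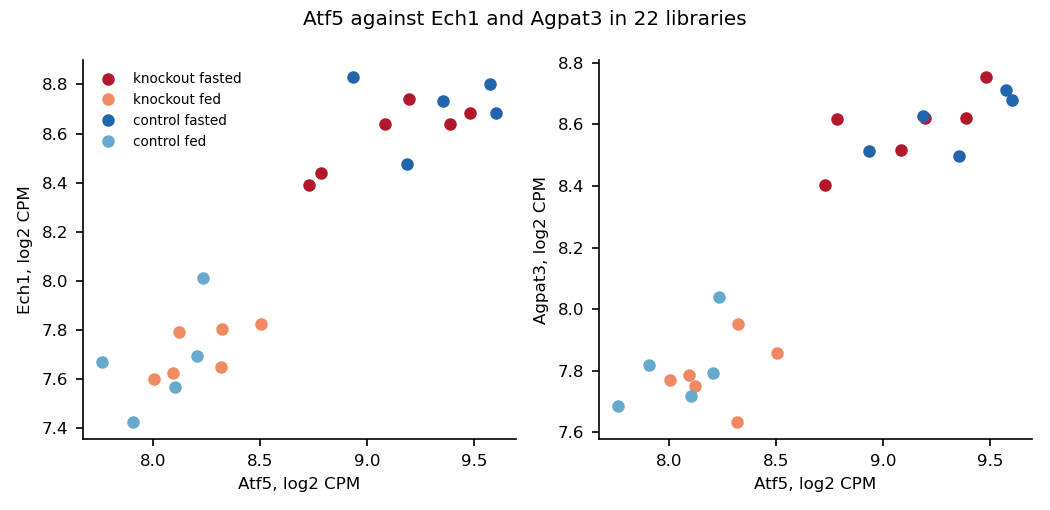
Atf5 (x axis, log2 CPM) against Ech1 and Agpat3 (y axes, log2 CPM) in the 22 libraries, coloured by group. Fasted libraries of both genotypes form 1 cloud at high values and fed libraries another at low values, and r over all libraries is 0.94 in each panel.

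Upstream of ATF4, 13 genes for eIF2alpha kinases, phosphatase subunits and related factors were compared with fasting. In control livers edgeR called 0 of them, beside 8.12% of all genes tested. There 2 reached an unadjusted p under 0.05 and DESeq2 called 0. In knockout livers 1 of the 13 was called, beside 6.14% of all genes. The 1 was Oma1, the mitochondrial protease that relays mitochondrial stress, which fell by 0.75 on the log2 scale to 7.76 ± 1.64 CPM in fasted livers, against 13.0 ± 2.92 CPM in fed ones (SD, n = 6 each; edgeR adjusted p = 0.014). In control livers Oma1 had a log2 change of -0.49 (adjusted p = 0.189). The median of the list was -0.08 in knockout and 0.01 in control livers, close to 0.01 and 0.00 over all genes.

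Of 13 bZIP partners and relatives, 2 rose in knockout livers, where 2.88% of all genes were called higher. In control livers 1 rose and 1 fell, beside 3.99% of all genes called higher and 4.13% lower. Creb3l3, a liver bZIP factor of lipid metabolism, rose in knockout (log2 0.67 ± 0.12, adjusted p = 0.000143) and control livers (log2 0.58 ± 0.13, adjusted p = 0.0021). Cebpd rose in knockout livers (log2 1.42 ± 0.36, adjusted p = 0.0196) and had log2 0.83 in control livers (adjusted p = 0.249). Xbp1, the factor of another arm of the unfolded protein response, fell in control livers (log2 -0.47 ± 0.13, adjusted p = 0.0142) and had log2 -0.03 in knockout livers (adjusted p = 0.97). The call of Cebpd was lost without knockout fed replicate 6, and that of Xbp1 without control fed replicate 3. No difference between the genotypes was called for these 13 genes by edgeR, DESeq2 or limma voom. At an unadjusted p under 0.05 edgeR counted 1 in fasted livers, 1 in fed livers, 1 averaged over feeding and 1 in the interaction. The list median was 0.22 in knockout and 0.19 in control livers.

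Other enzymes of amino acid and one-carbon synthesis that ATF4 is known to drive numbered 12. Of these, 1 was called lower with fasting in each genotype, beside 3.26% of all genes in knockout and 4.13% in control livers. This was Cbs, an enzyme of cysteine synthesis, which had log2 -0.37 ± 0.11 in knockout (adjusted p = 0.0434) and -0.41 ± 0.12 in control livers (adjusted p = 0.0323). The call in knockout livers was lost in 15 of 30 other settings, 13 of them fits without 1 library (control fed replicates 1, 2 and 4, control fasted 3 and 6, knockout fed 1, 2, 3, 4 and 6, or knockout fasted 2, 3 and 5). The call in control livers was lost in 7 of 30, including fits without control fed replicates 1, 2 or 5 or control fasted 2, 3 or 5. Intervals were wide elsewhere. In control livers the serine synthesis gene Psat1 had log2 4.15 (95% interval 0.91 to 7.40, adjusted p = 0.114) and Phgdh 2.15 (95% interval -0.55 to 4.84, adjusted p = 0.412). The list median was -0.19 in knockout and 0.34 in control livers. Of 8 tested amino acid transporters among 10, edgeR, DESeq2 and limma voom called 0 in either genotype, and 0 reached an unadjusted p under 0.05. Over all genes, edgeR called 6.14% in knockout and 8.12% in control livers.

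Aminoacyl-tRNA synthetases, which charge tRNAs in the cytosol and are driven by ATF4 in several cell types, were lower with fasting wherever they were called. Of 12 genes, 2 fell in knockout livers, beside 3.26% of all genes, and 3 in control livers, beside 4.13%. Negative changes were fitted for 9 of 12 in each, with a median of -0.14 in knockout and -0.26 in control livers. Tars fell in knockout (log2 -0.44 ± 0.12, adjusted p = 0.0134) and control livers (log2 -0.47 ± 0.13, adjusted p = 0.014). Cars fell in knockout livers (log2 -0.67 ± 0.17, adjusted p = 0.0104), and Nars (log2 -0.43 ± 0.11, adjusted p = 0.0111) and Aars (log2 -0.36 ± 0.11, adjusted p = 0.0375) fell in control livers. The call of Aars was lost in 13 of 30 other settings, including fits without any 1 control library other than control fed replicate 4. That of Tars in control livers was lost without control fasted replicate 1, and that of Nars without control fasted replicate 3.

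Of 13 tested genes among 14 other ATF4 targets, Fgf21 was the 1 called, and it rose in both genotypes. Over all genes, 2.88% were called higher in knockout and 3.99% in control livers. Fgf21, a hormone secreted by fasted liver and a target of PPARalpha as well as of ATF4, reached a median of 3.92 CPM in knockout fasted livers, against 0.194 CPM in knockout fed livers, and 5.41 CPM in control fasted livers, against 0 in control fed livers. The ranges were 1.16 to 15.4 CPM in knockout fasted and 0 to 0.791 CPM in knockout fed livers, and 1.15 to 7.95 CPM in control fasted and 0 to 0.167 CPM in control fed livers, without overlap in either genotype. The log2 changes were 4.12 ± 0.90 in knockout (adjusted p = 0.00584) and 6.67 ± 1.21 in control livers (adjusted p = 0.000872), and limma voom with its block did not call either. The control fed libraries held 7 Fgf21 reads in all, so the size of the control change is imprecise, with a 95% interval of 4.16 to 9.18. The list median was 0.26 in knockout and 0.20 in control livers.

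Genes of the XBP1 and ATF6 arm, chaperones and quality control of the endoplasmic reticulum, had lower fitted levels in control fasted livers. All 16 had negative changes there, with a median of -0.46, and 4 were called lower, beside 4.13% of all genes. Pdia6, a disulfide isomerase, fell by 0.90 on the log2 scale (adjusted p = 0.00241), the translocon subunit Sec61b by 1.03 (adjusted p = 0.00543), the degradation factor Edem1 by 0.55 (adjusted p = 0.00937) and the isomerase Pdia3 by 0.51 (adjusted p = 0.0231). The call of Pdia3 was lost without control fed replicate 4, control fasted replicate 3 or control fasted replicate 5. In knockout livers the median was -0.12, 9 of 16 were negative and 1 was called, beside 6.14% of all genes. This was the chaperone cofactor Dnajb9 (log2 0.60 ± 0.18, adjusted p = 0.042). Its call was lost in 11 of 30 other settings, including fits without knockout fed replicates 1, 2, 3 or 6, knockout fasted 2, 3 or 4, or control fasted 6. The interaction was positive for 16 of 16 with a median of 0.38, but edgeR, DESeq2 and limma voom called 0, and 2 reached an unadjusted p under 0.05. That value shares its libraries with each of the others.

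Of 10 mitochondrial chaperones and proteases, 1 was called in knockout livers, beside 6.14% of all genes. This was the cochaperone Dnaja3 (log2 0.42 ± 0.10, adjusted p = 0.00382). In control livers edgeR and limma voom called 0, where edgeR called 8.12% of all genes. DESeq2 called 1 there, and 2 reached an unadjusted p under 0.05. The list medians were 0.03 in knockout and 0.02 in control livers.

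Glucocorticoid-responsive genes were listed because corticosterone rises in fasted mice. Of 12, 5 were called higher in knockout livers, beside 2.88% of all genes, and 3 in control livers, beside 3.99%. The list median was 1.16 in knockout and 0.90 in control livers, and negative changes were fitted for 1 of 12 and 3 of 12 in that order. Fkbp5, a glucocorticoid receptor cochaperone, rose in knockout (log2 2.12 ± 0.31, adjusted p = 0.000152) and control livers (log2 2.23 ± 0.34, adjusted p = 0.000243). The metallothionein Mt1 rose in knockout (log2 2.25 ± 0.54, adjusted p = 0.0147) and control livers (log2 2.52 ± 0.60, adjusted p = 0.0112), and Mt2 in knockout (log2 2.61 ± 0.69, adjusted p = 0.0262) and control livers (log2 2.80 ± 0.76, adjusted p = 0.027). Mt2 lost its call in 6 of 30 other settings in knockout livers, including fits without knockout fed replicates 2, 5 or 6 or knockout fasted 4. It lost it in 7 of 30 in control livers, including fits without control fed replicates 1, 2, 3 or 5 or control fasted 2. Cdkn1a, a cell cycle inhibitor, rose in knockout livers (log2 4.35 ± 0.93, adjusted p = 0.0062). Its overlapping ranges were 2.74 to 162 CPM in knockout fasted and 0.257 to 6.33 CPM in knockout fed livers. In control livers Cdkn1a had log2 2.58 (edgeR adjusted p = 0.117). The control ranges did not overlap, at 4.91 to 31.9 CPM in fasted and 1.56 to 3.58 CPM in fed livers. The call of Cdkn1a in knockout livers was lost in 2 of 30 other settings. These were limma voom and the fit of only the groups compared, with adjusted p-values of up to 0.284. Mt1 also lost its call in knockout livers when only those groups were fitted (edgeR adjusted p = 0.0584). Per1, a clock gene, rose in knockout livers (log2 1.70 ± 0.46, adjusted p = 0.0299). It lost that call in 6 of 30 other settings, without knockout fed replicates 2, 5 or 6 or knockout fasted 1, 2 or 4. In control livers Per1 had log2 1.25 (edgeR adjusted p = 0.15).

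**Figure D5:**
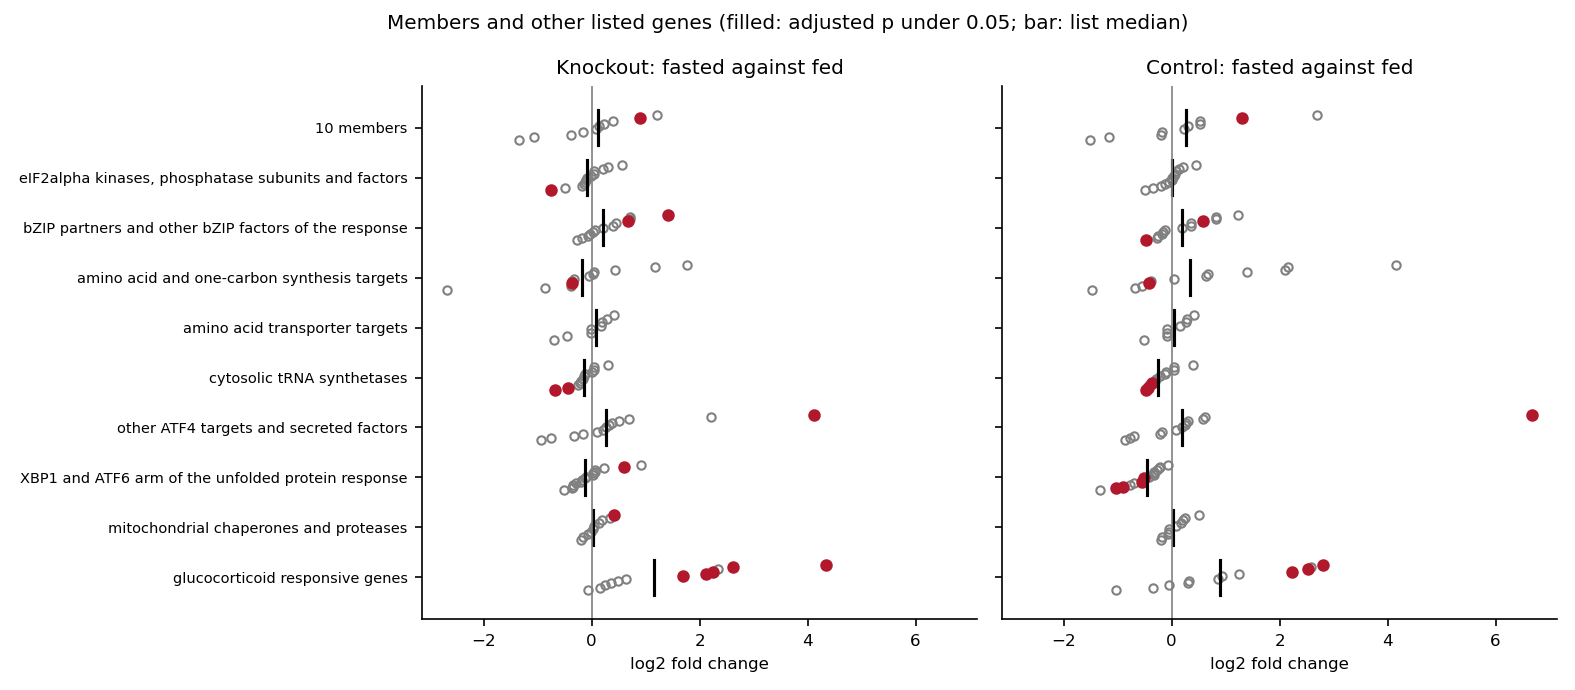
Log2 fold change (x axis) of fasting in knockout livers on the left and control livers on the right, for the members and 9 gene lists; points are genes, filled points have an edgeR adjusted p under 0.05 and bars are list medians. In knockout livers the glucocorticoid list has 5 of 12 points filled and every other list has 2 or fewer. In control livers the XBP1 and ATF6 list has 4 of 16 filled. The glucocorticoid and tRNA synthetase lists have 3 of 12 each there, and the rest have 2 or fewer. Over all genes, 6.14% were called in knockout and 8.12% in control livers.

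Between the genotypes, none of the listed genes was called in fasted livers, in fed livers, averaged over feeding or in the interaction, by edgeR, DESeq2 or limma voom. At an unadjusted p under 0.05 the counts per list ran from 0 to 3 in fasted livers and averaged over feeding, and from 0 to 2 in fed livers and in the interaction. The XBP1 and ATF6 list had positive differences for 16 of 16 genes in fasted livers, with a median of 0.29, and 3 of them reached an unadjusted p under 0.05. It had positive differences for 4 of 16 in fed livers, with a median of -0.12, and 0 reached that level.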

How the data were processed

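Counts, CPM and RPKM per gene were deposited, 1 file per library. Per the submitters' processing notes, the deposited counts came from bcl2fastq, STAR 2.5.1a and featureCounts 1.4.6-p5 (Subread) on GRCm38; neither the annotation release nor the strand setting is given in those notes or the labels. As checked against the counts, the authors' CPM is each count scaled to a common total of assigned reads, and the deposited RPKM is that CPM per kilobase. Symbols were given for 97.3% of 41388 genes.

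Groups came from the labels. Counts of 22 libraries were fitted together with edgeR 4.0.16 (R 4.3.3; robust quasi-likelihood, TMM, filter by group at 10 counts and 15 in all), with Benjamini-Hochberg adjustment over 16757 genes. Errors of fold changes are SE, and intervals are 95%. The floor for no reads is 3 counts, which covers counting error only. DESeq2 1.42.0, limma 3.58.1, other scalings and filters, 23 libraries and leaving out each library were tried. Correlations used log2 CPM with a prior count of 2 and 100000 permutations within groups. The procedure was tested on simulated data.

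The members and lists were chosen with earlier results of these data known. Named listed genes were, per list and comparison, up to 3 called genes with the smallest p. Psat1, Phgdh, Per1, Pdia3 and single cell type markers were named after their values were seen. Most alike genes were the 3 with the highest r at a mean log2 CPM of at least 2. A gene that these rules name is not reported here.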

Additional observations from a re-analysis of the deposited data

Results flagged for a closer look

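Among 40 combinations of member and group, 2 held a library far from the others of its group, and chance alone marks about 1 in 20. Chac1 in knockout fed replicate 2 was at 0.408 CPM, below the others at 1.31 to 2.29 CPM. Mthfd2 in control fasted replicate 5 was at 1.93 CPM, above the others of that group. That library also had the highest summed level of kidney tubule markers among the 22, at 15.8 CPM. The kidney-like library had Mthfd2 at 3.19 CPM of its total, inside the range of the 22, which was 0.186 to 5.56 CPM of the total. The fasted libraries alone reached 1.93 CPM in control and 1.42 CPM in knockout livers with TMM scaling. A link between these values was not tested. Without control fasted replicate 5 the log2 change of Mthfd2 with fasting in control livers was -1.59 (edgeR adjusted p = 0.182). That of Atf5 was 1.39 (edgeR adjusted p = 4.22e-08).

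The library labelled control fasted replicate 4, which entered no comparison, held 4 members above all 22 other libraries. Ddit3 was at 9.75 CPM there, Sesn2 at 85.1 CPM, Ddit4 at 52.1 CPM and Nupr1 at 10.9 CPM, against highest values of 8.59, 36.4, 37.6 and 1.61 CPM in the others. Atf5 at 14 CPM and Trib3 at 1.02 CPM lay below all 22, which had 231 to 741 and 4 to 27.2 CPM, and the other 4 members lay inside the range. These values are CPM of the library total, without a scaling factor.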

How the results depend on the processing

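In the planned settings other than leaving out a library, 430 of 454 values kept their direction and side of the threshold, 3 gained a call, 2 lost one and 19 that were never called changed sign. Leaving out each library gave 1255 of 1320 alike, 1 gained call and 64 sign changes of values never called. For fasting in knockout livers, members called numbered 1, with 2 under library totals, 2 when only the groups compared were fitted, 0 with all 23 complete libraries, and 1 to 2 over the leave-one-out fits. For fasting in control livers they numbered 1, with 2 in limma voom and 0 with 23 libraries. Over all genes, 23 libraries gave 379 calls in knockout and 805 in control livers, against 1029 and 1360. Genotype in fasted livers gave 1 call, 2 with DESeq2 and 0 with 23 libraries. In fed livers it gave 1, 83 with DESeq2, 14 without a filter, 5 with library totals (80% of them higher, against 0%) and 0 with 23 libraries. Averaged over feeding it gave 6, with 39, 12, 12 and 1 under the same settings, 2 in limma voom and 3 at a mean CPM of at least 1. The interaction gave 1, 10 with DESeq2 and 0 with 23 libraries. Leaving out 1 library at a time gave 1 in all 22 fits in fasted livers and 1 to 13 in fed livers, with 8 without knockout fed 4, 13 without control fed 4, 3 without knockout fasted 6, 5 without control fed 2, and 2 without knockout fasted 1, 2, 4, knockout fed 2 or control fasted 5. It gave 3 to 15 averaged over feeding, with 15 without knockout fasted 1, 10 without control fed 4, and 3 without any of knockout fasted 2, 6, knockout fed 1, 3, 4, control fasted 3, 6, control fed 2, 3. For the interaction it gave 0 in 13 of the 22 fits, leaving out any of knockout fasted 1, 3, 4, 6, knockout fed 1, 4, 5, control fasted 1, 6, control fed 1, 3, 4, 5, and 1 in the others. With 23 libraries the calls of Creb3l3, Tars, Cbs and Mt2 were lost in both genotypes, those of Cars, Dnaja3, Dnajb9 and Cebpd in knockout livers and that of Aars in control livers. Cdkn1a lost its call in limma voom, and Cdkn1a and Mt1 lost theirs in knockout livers when only those groups were fitted. The cause of these shifts was not tested. Nupr1 could not be tested at a mean CPM of at least 1.

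No paired analysis was possible because the titles share no replicate numbers between groups. Clusters of neighbouring title numbers, 10 among the 22 libraries, had a consensus correlation of -0.013 as a random block. Few reads limit Nupr1, Chac1 and Mthfd2, and spread between libraries limits Asns and Ddit4.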
